A study of Mus musculus with 5 samples.

Results

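The loci of 6 transcriptional regulators of blood stem and myeloid cells, Spi1, Runx1, Gfi1, Lmo2, Gata2 and Sox4, were examined for binding of Hoxa9 and C/EBPα and for the histone marks H3K4me1 and H3K27me3. Members were chosen by position alone: every row of the 4 peak lists that touched a gene span of mm9 extended by 75 kb on either side. This gave 338 of 166982 rows, made up of 13 of 6578 Hoxa9 peaks, 70 of 26446 C/EBPα peaks, 248 of 100189 H3K4me1 regions and 7 of 33769 H3K27me3 regions. The cells came from bone marrow of C57B6 mice depleted of lineage-positive cells. They carried retroviruses for both HA-tagged Hoxa9 and Flag-tagged Meis1 (MIGR1-HA-Hoxa9 and MIGR1-Flag-Meis1) and were kept in IL3. The Hoxa9 library was precipitated through the HA tag and therefore reports the introduced protein, not the endogenous one. C/EBPα, H3K4me1 and H3K27me3 were precipitated with their own antibodies from cells of the same kind, so all 4 lists share both transgenes and no list comes from cells without them. There was 1 library for each precipitation and 1 input library not used here. No value below has a replicate error, no conditions were compared and no test was made. RNA was not measured, so the identity of the cells could not be checked against marker genes.

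Spi1 encodes PU.1, an ETS factor needed for myeloid and B cells. Runx1 encodes the DNA-binding subunit of core binding factor and has a distal and a proximal promoter. Gfi1 is a zinc finger repressor active in stem cells and granulocyte precursors. Lmo2 is a LIM-only protein that binds no DNA itself and bridges factors such as Tal1 and Gata2. Gata2 is a zinc finger factor of stem cells and early progenitors, and Sox4 is an HMG-box factor linked to leukaemia. Distal enhancers are a known feature of most of these genes, among them an upstream element of Spi1 to which C/EBPα and Runx1 are known to bind. H3K4me1 marks enhancers and H3K27me3 is placed by Polycomb repressive complex 2.

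Sequence was available for the gene starts, not for the distal sites, since no mm9 genome was used. RefSeq promoter entries (GRCm38.p6) were matched for 4 of the 6 genes, Runx1, Gfi1, Gata2 and Sox4, with 7 starts in all. The 250 bases before the most upstream start of Runx1, Gfi1, Gata2 and Sox4 are shown because factor peaks lay within 1 kb of the matching end of the gene span. Capitals mark a match to TTGCNNAA, a C/EBP motif.
Runx1 (RefSeq, GRCm38.p6, chr16:92826075-92826324, minus strand): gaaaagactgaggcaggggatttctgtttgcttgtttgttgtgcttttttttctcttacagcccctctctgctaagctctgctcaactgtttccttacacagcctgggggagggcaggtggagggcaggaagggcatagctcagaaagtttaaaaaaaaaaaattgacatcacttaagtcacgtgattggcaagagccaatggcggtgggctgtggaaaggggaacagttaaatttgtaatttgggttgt
Gfi1 (RefSeq, GRCm38.p6, chr5:107725806-107726055, minus strand): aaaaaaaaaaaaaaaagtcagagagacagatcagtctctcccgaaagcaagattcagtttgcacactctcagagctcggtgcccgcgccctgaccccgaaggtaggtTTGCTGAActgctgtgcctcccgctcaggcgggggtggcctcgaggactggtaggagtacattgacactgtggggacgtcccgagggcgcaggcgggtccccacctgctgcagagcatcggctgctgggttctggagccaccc
Gata2 (RefSeq, GRCm38.p6, chr6:88193641-88193890, plus strand): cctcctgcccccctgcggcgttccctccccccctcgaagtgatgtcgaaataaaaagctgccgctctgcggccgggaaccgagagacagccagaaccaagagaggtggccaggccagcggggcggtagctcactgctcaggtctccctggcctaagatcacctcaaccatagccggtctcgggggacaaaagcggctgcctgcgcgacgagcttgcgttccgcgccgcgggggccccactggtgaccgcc
Sox4 (RefSeq, GRCm38.p6, chr13:28953700-28953949, minus strand): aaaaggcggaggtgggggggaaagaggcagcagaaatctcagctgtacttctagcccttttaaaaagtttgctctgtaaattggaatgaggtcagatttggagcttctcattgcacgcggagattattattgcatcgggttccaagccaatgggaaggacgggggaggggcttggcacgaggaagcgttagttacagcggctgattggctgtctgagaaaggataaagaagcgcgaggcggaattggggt
The Gfi1 stretch held TTGCTGAA, with its first base 143 bases before the start. It was the only match to TTGCNNAA among the 7 starts, searched on both strands, against 9.56% of 32851 promoter entries of the same length. Neither TGATTNAT, a Pbx-Hox motif, nor TGACAG, a Meis motif, was found in the 7 stretches. They occurred in 2.82% and 15.9% of all entries. A lack of these letters covers only the windows searched. The entries and the peaks are on different builds, so whether the Gfi1 match lay under a peak was not tested.

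The 6 windows held more C/EBPα peaks, Hoxa9 peaks and H3K4me1 per base than the lists as a whole and less H3K27me3, and they differed among themselves. Over 1.215 Mb they held 57.6 C/EBPα peaks per Mb, against 10.3 per Mb over the 2574.38 Mb spanned by the lists. Hoxa9 peaks numbered 10.7 per Mb in the windows and 2.56 per Mb over the lists. H3K4me1 covered 32.4% of the windows and 4.64% of the genome span of the lists. For H3K27me3 the shares were 1.71% of the windows and 2.51% of that span. The span of the lists includes stretches without genes, so these ratios do not set the 6 loci apart from other genes.

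**Figure D1:**
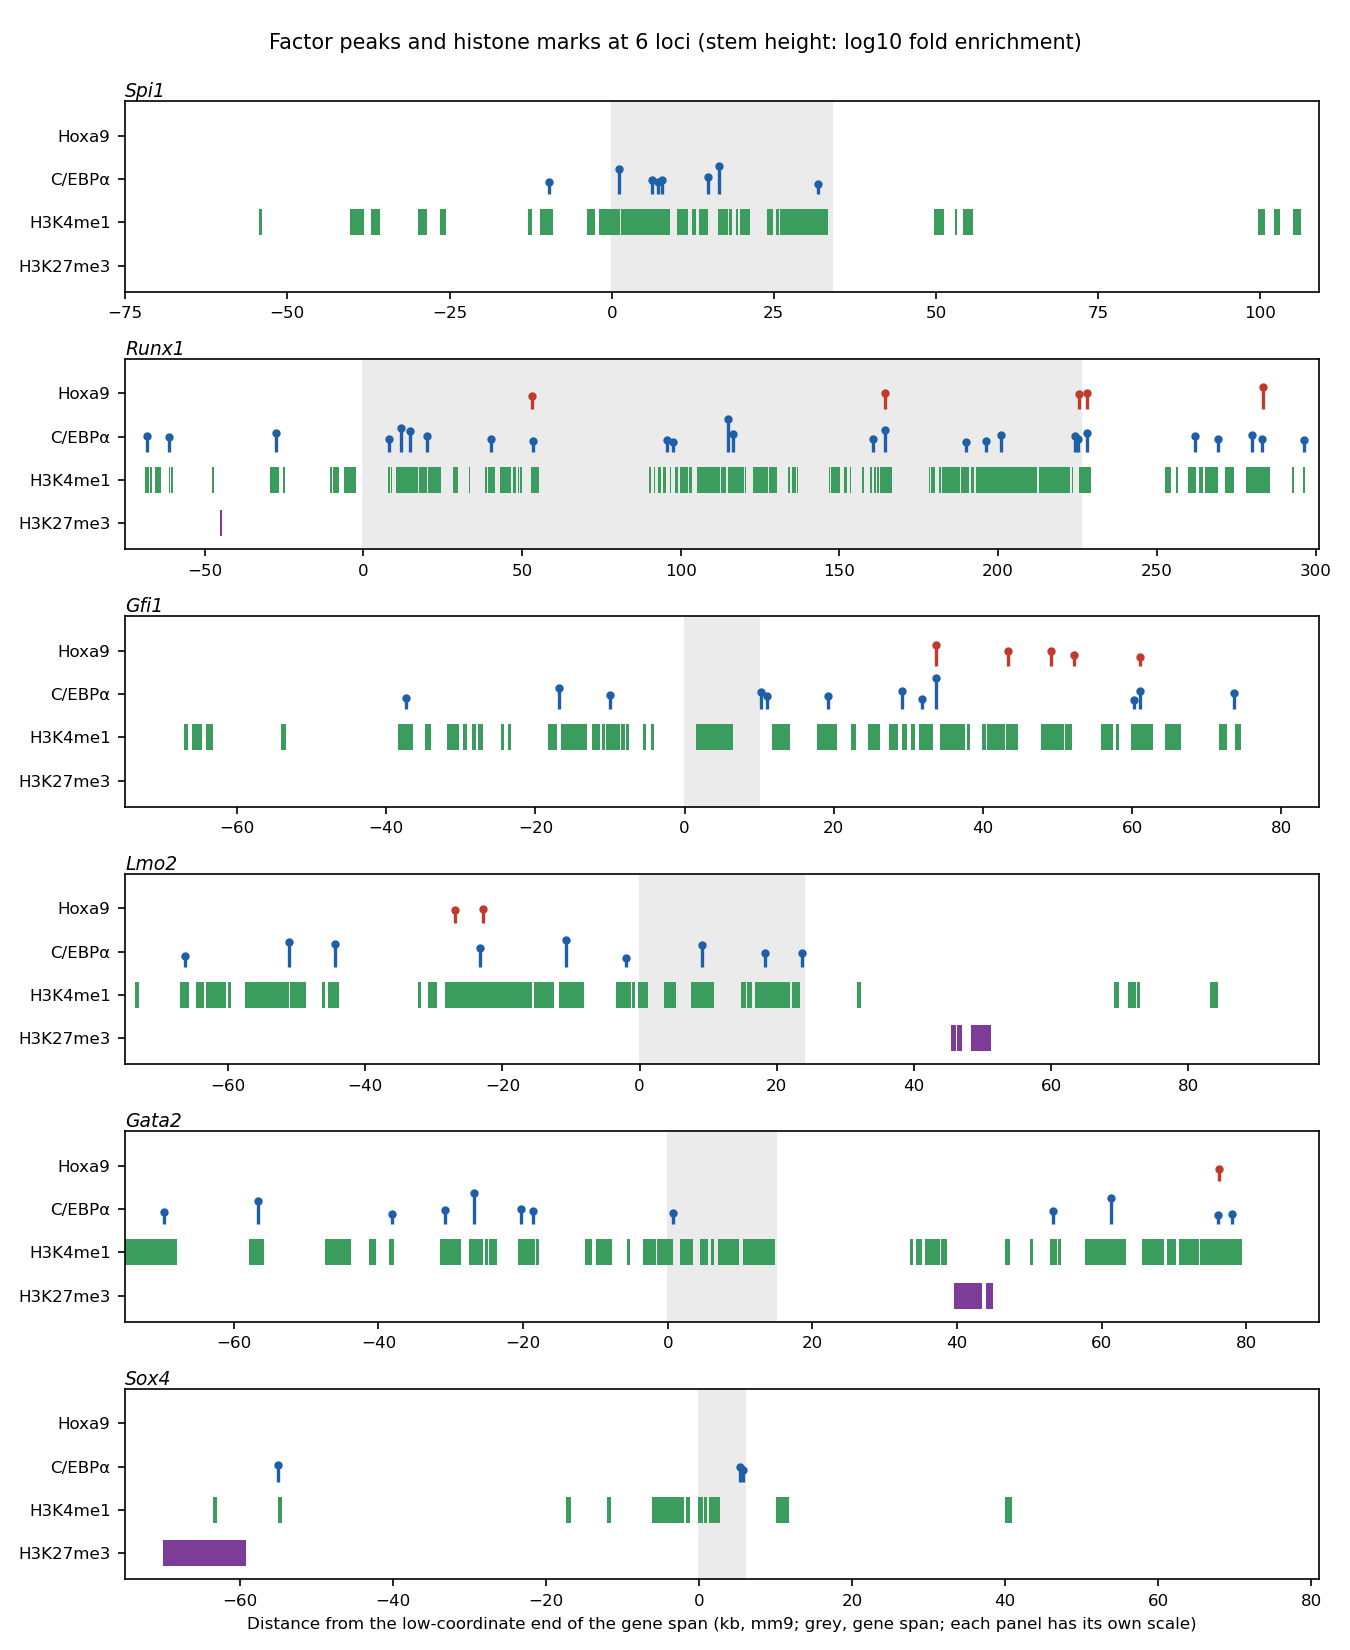
Peaks and regions of the 4 lists in each window, by distance in kb from the low-coordinate end of the gene span (grey). Stems mark factor summits, with height on a log10 scale of fold enrichment, and blocks mark regions of each histone mark. The 5 Hoxa9 peaks at Gfi1 all stand on one side of the gene, the Spi1 and Sox4 windows hold none, and no H3K27me3 block lies inside a gene span.

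By density the order for C/EBPα was Gfi1 with 7.5 peaks per 100 kb, Gata2 with 7.27, Runx1 with 6.92, Lmo2 with 5.17, Spi1 with 4.35 and Sox4 with 1.92. These rest on 12, 12, 26, 9, 8 and 3 peaks in that order, so neighbours in it cannot be ranked firmly. For Hoxa9 the order was Gfi1 with 3.13 peaks per 100 kb, Runx1 with 1.33, Lmo2 with 1.15 and Gata2 with 0.606, from 5, 5, 2 and 1 peaks. The Spi1 and Sox4 windows held 0. Fold enrichment, the linear ratio that the authors' caller gave each peak, had a median of 7.06 in the 13 Hoxa9 peaks and 6.06 in the Hoxa9 list. It was 6.765 in the 70 C/EBPα peaks and 7.74 in the C/EBPα list. A fold enrichment of 10 or more was reached by 2 of 13 Hoxa9 peaks (15.4%), against 16.7% of the list, and by 21 of 70 C/EBPα peaks (30%), against 35.7%. Each window other than Sox4 held a C/EBPα peak among the upper 2.30% of the list by fold enrichment. That limit was the rank of the leading Lmo2 peak, the lowest of these, and was not set beforehand. Windows with more peaks had more chances to hold such a peak, and Sox4 had 3.

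**Figure D2:**
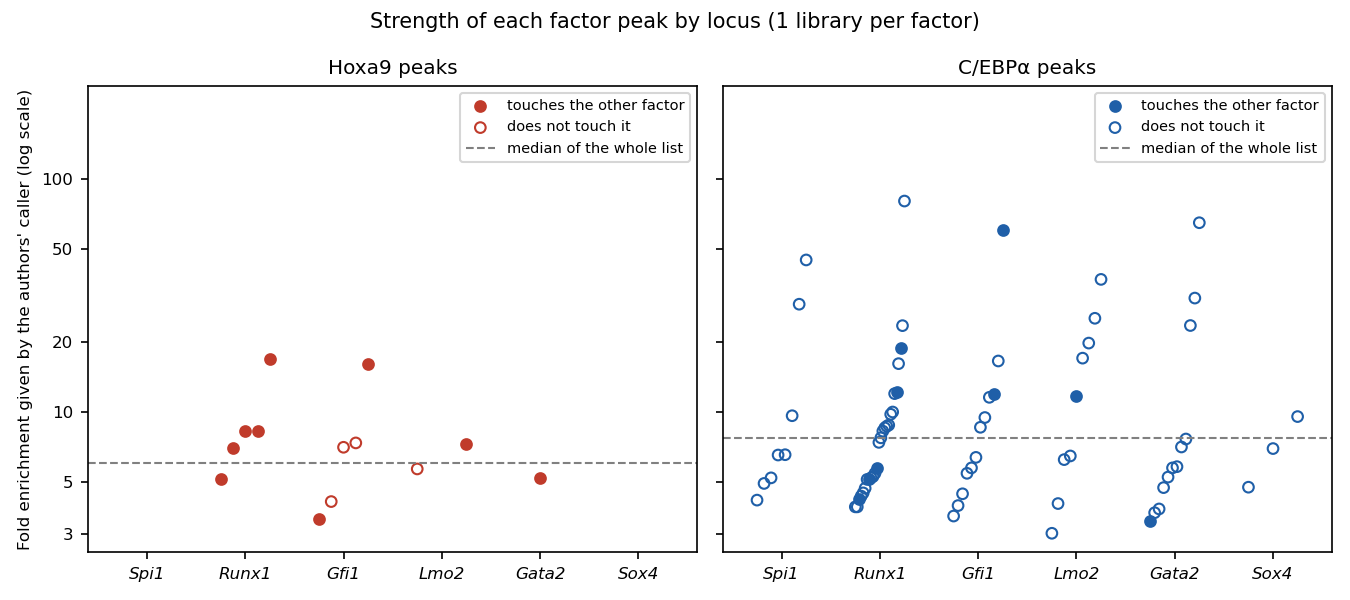
Fold enrichment of every Hoxa9 (left) and C/EBPα (right) peak by locus on a log axis, each point 1 peak of 1 library, spread sideways by rank. Filled points touch a peak of the other factor, and dashed lines mark the medians of the whole lists, 6.06 and 7.74. The highest C/EBPα points of Runx1 and Gata2 are open, and that of Gfi1 is filled.

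At Spi1, C/EBPα was bound within the gene span without a called Hoxa9 peak anywhere in the window. The nearest Hoxa9 peaks lay 366.3 kb below and 567.0 kb above the window, with fold enrichments of 12.7 and 6.0. Of 8 C/EBPα peaks, 7 had their summits inside the 34.0 kb span and the other lay in the low flank. The strongest, at chromosome 2 from 90938020 to 90939139, held 222 tags at a fold enrichment of 44.88, in the upper 1.21% of the list. Its summit was 16.5 kb above the low end of the span. The next, from 90922664 to 90923737, held 203 tags at a fold enrichment of 28.99 (upper 4.84%), with the summit 1.2 kb above the low end. A weaker peak, from 90936586 to 90937185, had 35 tags and a fold enrichment of 9.64. The other 5 had fold enrichments from 4.19 to 6.56.

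All 8 Spi1 peaks touched H3K4me1. The mark covered 74.1% of the span and 23.9% of the window. The widest region, from 90923436 to 90930982 (7547 bp, fold enrichment 11.23), began within the C/EBPα peak at the low end and took in 3 further C/EBPα summits. The other, from 90947977 to 90955340 (7364 bp), had the highest H3K4me1 fold enrichment of the window, 13.11, in the upper 0.45% of that list. The window held 0 H3K27me3 regions.

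Runx1, the longest of the 6 genes here with a span of 226.0 kb, had 26 C/EBPα and 5 Hoxa9 peaks, and all 5 Hoxa9 peaks touched a C/EBPα peak. Its leading C/EBPα peak, at chromosome 16 from 92714933 to 92716641, reached 392 tags at 80.28-fold enrichment, in the upper 0.049% of the list and the highest over the 6 loci. It lay 115 kb above the low end of the span and 49340 bp from the nearest Hoxa9 summit, and carried no Hoxa9 call. Its summit fell in a gap of 684 bp between H3K4me1 regions. The second, from 92612498 to 92613421, had 107 tags at 23.46-fold enrichment, and no Hoxa9 summit was nearer than 41315 bp. Another strong one, from 92764675 to 92765765, had 129 tags and a fold enrichment of 18.89.

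That peak met a Hoxa9 peak from 92764757 to 92765673, with 70 tags and a fold enrichment of 8.33, and the summits lay 27 bp apart. At the end of the span where Runx1 transcription starts, a pair of Hoxa9 peaks stood 2570 bp apart. The first, from 92826111 to 92826616 (27 tags, fold enrichment 7.04), had its summit 666 bp inside the span end and 133 bp from that of a C/EBPα peak with a fold enrichment of 5.73. The second, from 92828549 to 92829113 (30 tags, fold enrichment 8.28), lay 1.90 kb beyond the span end and 24 bp from a C/EBPα summit with a fold enrichment of 12.2. Both factors were called on either side of this end.

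The strongest Hoxa9 peak of all 6 loci was also in the Runx1 window, from 92883839 to 92884926, 57.4 kb beyond the high end. It held 112 tags at a fold enrichment of 16.84, in the upper 3.73% of the Hoxa9 list. The C/EBPα peak it touched held 49 tags at a fold enrichment of 5.16, below the list median, with its summit 273 bp away. The Hoxa9 peak of lowest fold enrichment in the Runx1 window, from 92654029 to 92654650 (35 tags, fold enrichment 5.15), lay deep in the span and 214 bp from a C/EBPα summit with a fold enrichment of 4.23.

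H3K4me1 covered 40.5% of the Runx1 window in 91 regions and 49.6% of the span. The widest, from 92797850 to 92805942, spanned 8093 bp at a fold enrichment of 12.48. The region from 92878954 to 92886655 (7702 bp) held the strongest Hoxa9 peak. The only H3K27me3 region, from 92555706 to 92556430, was 725 bp wide with 42 tags and a fold enrichment of 4.99. Its summit lay 44.9 kb below the span.

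At Gfi1 all 5 Hoxa9 peaks lay on the high-coordinate side, which is upstream because Gfi1 is transcribed from the minus strand. By RefSeq order the next named gene on that side is Evi5. The extent of Evi5 was not placed on mm9, so whether the peaks lay before it or within it is not given. The 5 Hoxa9 summits were 23.7, 33.4, 39.2, 42.2 and 51.0 kb beyond the end of the Gfi1 span. The first, at chromosome 5 from 108177993 to 108179323, held 113 tags at a fold enrichment of 16.0, in the upper 4.42% of the Hoxa9 list. It coincided with the leading C/EBPα peak, from 108177959 to 108179270, which held 383 tags at a fold enrichment of 60.37, in the upper 0.291% of its list. The summits were 37 bp apart. Among the 13 Hoxa9 peaks this was the one paired with the strongest C/EBPα peak, and both summits fell in a gap of 951 bp between H3K4me1 regions.

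The next 3 Gfi1 peaks had no C/EBPα call. They lay from 108187974 to 108188835 (48 tags, fold enrichment 7.06), from 108193365 to 108194429 (63 tags, fold enrichment 7.37) and from 108197035 to 108197531 (22 tags, fold enrichment 4.13). Their nearest C/EBPα summits were 9709, 11061 and 7975 bp away. The last of them was the only Hoxa9 peak of the 13 that touched no H3K4me1 region, and its summit was 249 bp from the nearest one. The fifth peak, from 108205743 to 108206220, was weak, with 23 tags, a fold enrichment of 3.48 and a false discovery rate of 0.38%. It met a C/EBPα peak of 63 tags and a fold enrichment of 11.99, with summits 32 bp apart.

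C/EBPα peaks flanked Gfi1 on both sides, 3 in the low flank and 9 in the high flank, the 2 that met Hoxa9 included. The second strongest, from 108127645 to 108128502 (79 tags, fold enrichment 16.55), lay 16.9 kb below the span. A peak from 108154748 to 108155753 (76 tags, fold enrichment 9.47) crossed the end of the span where the gene starts. H3K4me1 covered 36.7% of the window. Its widest region, from 108146517 to 108151491 (4975 bp, fold enrichment 9.33), lay within the gene. There were 0 H3K27me3 regions.

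The Lmo2 window held 6 of its 9 C/EBPα peaks in the low-coordinate flank of 75 kb and 3 in the span of 24.0 kb. Per base the span thus held more peaks than that flank. By RefSeq order the next named gene on the low side is Caprin1, whose extent was not placed on mm9. The leading peak, at chromosome 2 from 103785665 to 103787856, held 345 tags at a fold enrichment of 37.04 (upper 2.30%) and lay 10.8 kb below the span. Peaks from 103746384 to 103747548 (147 tags, fold enrichment 25.23) and from 103753100 to 103754053 (91 tags, fold enrichment 19.75) lay 51.1 and 44.4 kb below it. The median fold enrichment of the 9 peaks was 11.7, the highest of the 6 loci, against 7.74 in the list.

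Both Lmo2 Hoxa9 peaks sat in the same flank and in the same H3K4me1 region, from 103769601 to 103782353, which at 12753 bp was the widest of that mark over the 6 loci. The peak from 103774525 to 103775421 (61 tags, fold enrichment 7.27) touched a C/EBPα peak with a fold enrichment of 11.7, with summits 392 bp apart. The peak from 103770770 to 103771358 (34 tags, fold enrichment 5.70) touched none and stood 3675 bp from the closest C/EBPα summit. H3K4me1 covered 34.2% of the window. H3K27me3 formed 3 regions in the high flank. The widest, from 103846349 to 103849264, spanned 2916 bp with 213 tags and a fold enrichment of 6.77, with its summit 26 kb beyond the span. No factor peak lay in that flank.

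Gata2 had strong C/EBPα peaks on both sides and 1 Hoxa9 peak. The leading C/EBPα peak, at chromosome 6 from 88115602 to 88116968, held 389 tags at a fold enrichment of 64.81 (upper 0.178%) and lay 26.8 kb below the span, upstream of the gene, which is on the plus strand. Peaks from 88203788 to 88204818 (183 tags, fold enrichment 30.80) and from 88085752 to 88086720 (142 tags, fold enrichment 23.49) lay 46.3 kb above and 56.6 kb below the span. None of the 3 touched Hoxa9. The Hoxa9 peak, from 88218833 to 88219471 (32 tags, fold enrichment 5.21), lay 61.3 kb beyond the high end. It touched a C/EBPα peak with a fold enrichment of 3.40, with summits 241 bp apart. By RefSeq order Dnajb8 and Eefsec follow on that side, and the place of the peak relative to them was not determined.

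A closer pair lay just past the edge of the Gata2 window. A Hoxa9 peak from 88066541 to 88067646 (93 tags, fold enrichment 12.87) ended 354 bp outside it, and a C/EBPα peak from 88066505 to 88067733 (191 tags, fold enrichment 35.09) ended 267 bp outside. Their summits were 15 bp apart, closer than in any of the 13 Hoxa9 peaks counted here. Just inside this edge the first C/EBPα peak, from 88073086 to 88073430, had 17 tags and a fold enrichment of 5.26. The widest H3K4me1 region of Gata2, from 88067098 to 88075197 (8100 bp), ran across the edge and touched both outer peaks. At the other windows, the nearest outer Hoxa9 peak was 30.4 kb or more away.

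All 12 Gata2 C/EBPα peaks had their summits inside H3K4me1 regions, and the mark covered 76% of the gene span and 40.8% of the window. H3K27me3 formed 2 regions above the gene. The stronger, from 88182593 to 88186514, spanned 3922 bp with 349 tags and a fold enrichment of 12.19, with its summit 27.5 kb beyond the span. The other, from 88186940 to 88187926, had a fold enrichment of 5.24. Neither touched H3K4me1 or a factor peak.

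Sox4, which has been described in leukaemia models as a gene held down by C/EBPα, had the fewest calls. Its window held 3 C/EBPα peaks and 0 Hoxa9 peaks, and the nearest Hoxa9 peaks lay 160.1 kb below and 401.7 kb above the window. A pair of C/EBPα peaks stood at the end of the span where the gene starts, at chromosome 13 from 29045189 to 29045524 (15 tags, fold enrichment 6.97) and from 29045553 to 29045989 (17 tags, fold enrichment 4.76), with summits 293 bp apart. The list's smallest tag count was 15, so both were near the limit of what was called. The other, from 28984633 to 28985297 (37 tags, fold enrichment 9.56), lay 55.0 kb below the span. Stronger C/EBPα binding was not called in the window.

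H3K4me1 covered 7.64% of the Sox4 window in 12 regions and 39.1% of the short gene span. The widest region, from 29033838 to 29038021, was 4184 bp long with a fold enrichment of 9.12. H3K27me3 covered 6.95% of the window in 1 region, from 28969907 to 28980753, which spanned 10847 bp with 1644 tags and a fold enrichment of 25.73 (upper 3.74% of its list). Its summit lay 61.9 kb below the span. The region contained a narrow H3K4me1 region from 28976518 to 28976970 (16 tags, fold enrichment 3.92), the only contact between the marks over the 6 loci. The Sox4 gene itself carried H3K4me1 and 0 H3K27me3 regions.

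**Figure D3:**
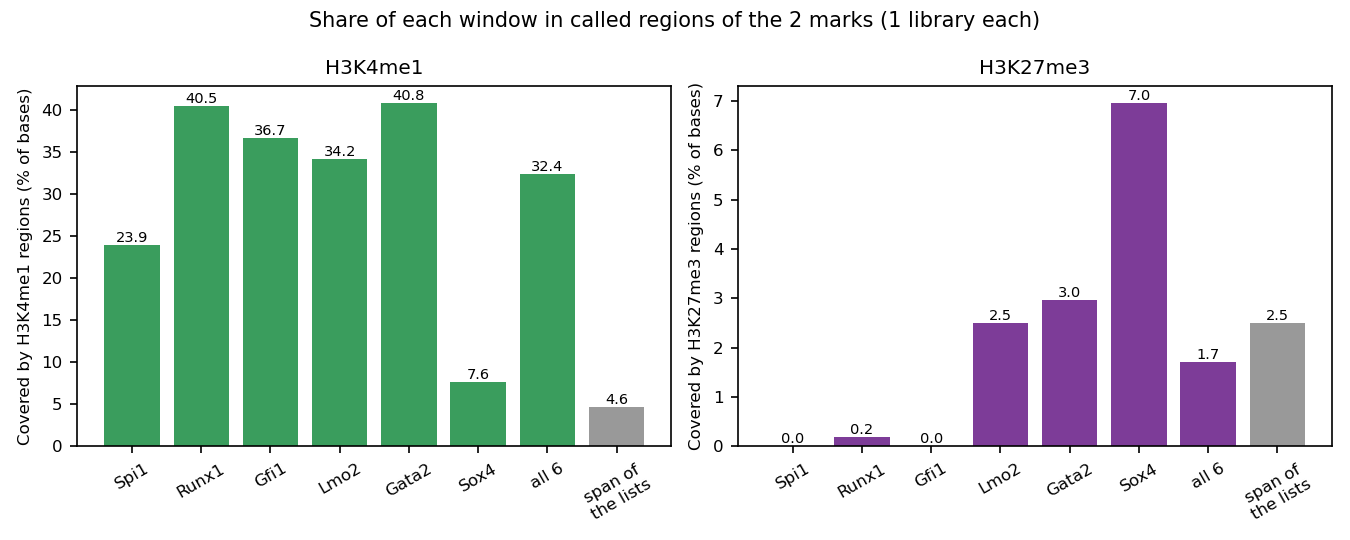
Percent of bases in called H3K4me1 (left) and H3K27me3 (right) regions for each window, for the 6 windows together and for the span of the 4 lists (grey), from 1 library each. H3K4me1 runs between 34.2% and 40.8% at Runx1, Gfi1, Lmo2 and Gata2, is 23.9% at Spi1 and 7.64% at Sox4, where H3K27me3 is highest at 6.95%.

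Over the 6 loci, 9 of 13 Hoxa9 peaks overlapped C/EBPα binding (69.2%, with a 95% exact interval of 38.6 to 90.9), against 56.9% of the Hoxa9 list. With 13 peaks the interval includes the share of the list. By locus the counts were 5 of 5 at Runx1, 2 of 5 at Gfi1, 1 of 2 at Lmo2 and 1 of 1 at Gata2, too few to tell the loci apart. In the 9 contacts the summits were 24 to 392 bp apart, with a median of 133 bp, and the other 4 lay 3675 to 11061 bp from any C/EBPα summit. Summits at most 200 bp apart occurred in 5 of 13 (38.5%, 13.9 to 68.4), against 46.4% of the list. All 5 were at Runx1 and Gfi1, which held 5 Hoxa9 peaks each and so most of the 13. Counted over C/EBPα, 9 of 70 C/EBPα peaks touched Hoxa9 (12.9%, 6.05 to 23.0), against 14.2% of the C/EBPα list. Of the leading C/EBPα peaks of the 6 loci, only that of Gfi1 touched Hoxa9, and the Spi1 and Sox4 windows held 0 Hoxa9 peaks to touch. That is 1 of 6, beside 14.2% of all C/EBPα peaks. The share for list peaks of like strength was not computed.

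**Figure D4:**
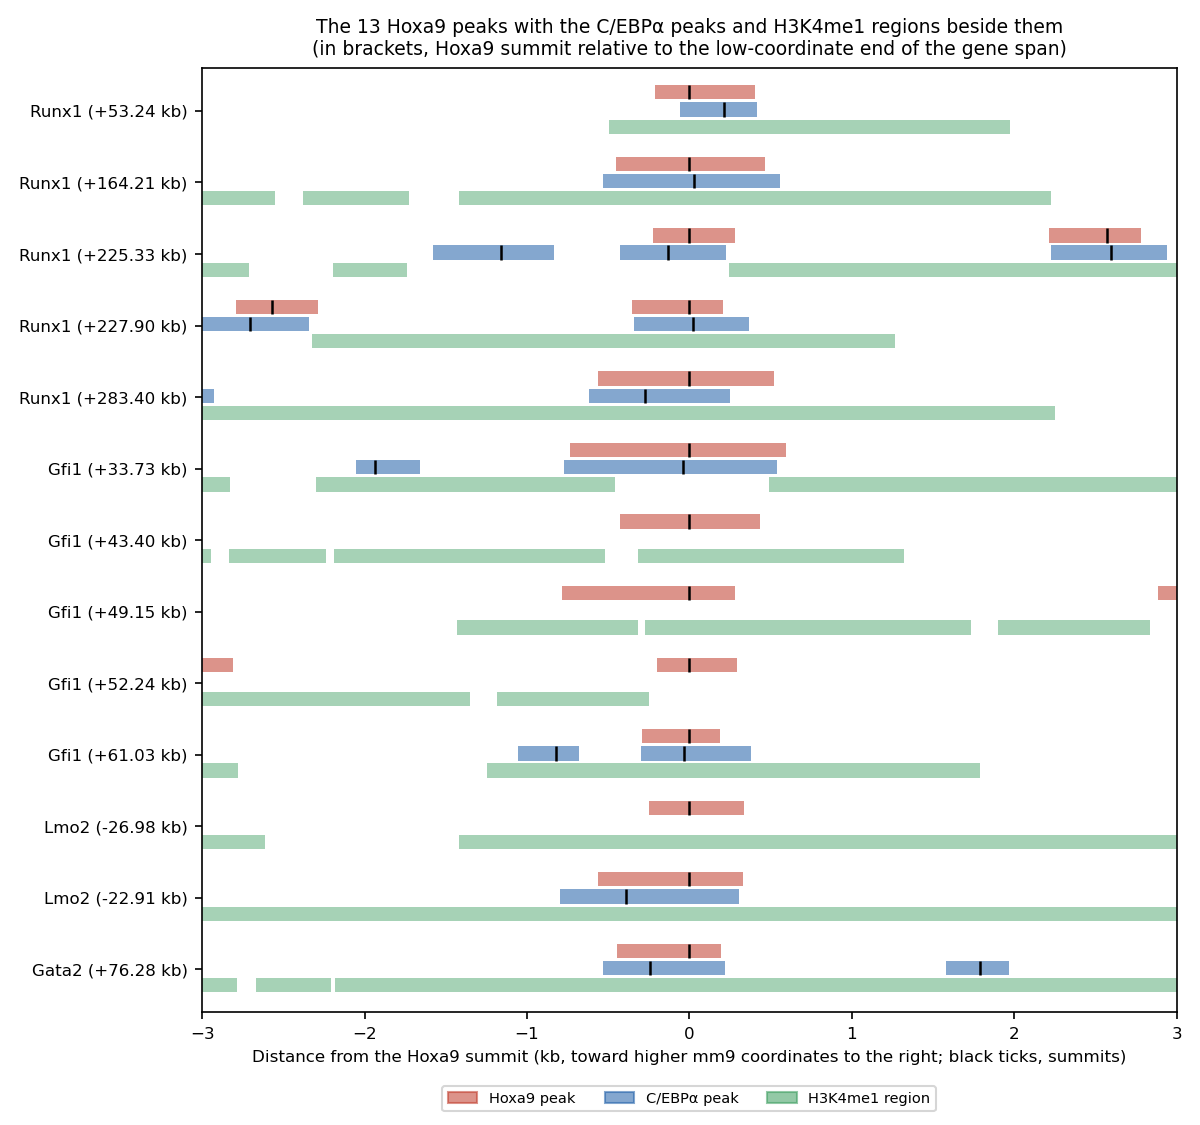
The 13 Hoxa9 peaks, each centred on its own summit, with the C/EBPα peaks and H3K4me1 regions within 3 kb. Bars are called extents and black ticks are summits. In 9 of 13 rows a C/EBPα peak overlaps the Hoxa9 peak, and at Gfi1 +33.73 kb the shared summits lie in a gap between H3K4me1 regions.

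Most factor peaks of the loci lay in H3K4me1. The mark touched 12 of 13 Hoxa9 peaks (92.3%, 64.0 to 99.8), against 82.4% of the list, and 62 of 70 C/EBPα peaks (88.6%, 78.7 to 94.9), against 73.6%. Summits fell inside a region in 10 of 13 Hoxa9 peaks (76.9%), against 68.6%, and in 53 of 70 C/EBPα peaks (75.7%), against 62.8%. With 32.4% of the windows in H3K4me1, coverage was higher than over the lists along with contact, and its part in the result was not tested. All 21 C/EBPα peaks with a fold enrichment of 10 or more touched the mark (100%), against 85.7% of such peaks in the list, and 17 of 21 had the summit inside it (81.0%), against 71.3%. Of the H3K4me1 regions, 59 of 248 touched C/EBPα (23.8%), against 19.9%, and 13 of 248 touched Hoxa9 (5.24%), against 6.22%. The Hoxa9 contacts include that of the region across the Gata2 window edge with the Hoxa9 peak just outside.

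The 8 C/EBPα peaks without H3K4me1 were at Runx1 (4), Gfi1 (2) and Sox4 (2), with fold enrichments from 3.92 to 9.47. Their places were looked at after the values were seen. With the strand taken from RefSeq for 4 genes, 6 of these 8 had their summit within 2 kb of the end of the span where transcription starts, against 2 of 45 C/EBPα peaks with H3K4me1 at the same 4 genes. Within 1 kb the counts were 4 of 8 and 1 of 45. The same count was not made over the whole C/EBPα list, so it does not set these loci apart. At Gata2 the peak nearest the start-side end of the span, 676 bp from that end, had its summit inside H3K4me1. Spi1 and Lmo2 had no RefSeq entry and were left out of these counts. All of their C/EBPα peaks, 8 and 9, touched H3K4me1. Among them, summits lay 1.2 kb above the low end of Spi1 and 1.96 kb below that of Lmo2. Another lay 372 bp inside the high end of Lmo2. The 6 of 8 within 2 kb were neighbouring pairs, 2 each at Runx1, Gfi1 and Sox4, so they are not 6 separate places. Each pair shared 1 break of the H3K4me1 calls, of 1985 bp at Runx1, 5262 bp at Gfi1 and 7326 bp at Sox4. Lying in a break follows from the choice of peaks without the mark. The other 2, from 92696588 to 92697073 and from 92698287 to 92698691, lay within the Runx1 span. Their summits were 130.2 and 128.4 kb from the end where transcription starts. On GRCm38.p6 the stretches before the 2 RefSeq starts of Runx1 began at 92826075 and 92697330. That spacing is close to these distances, so both peaks may lie near the downstream start. The count used the end of the span alone. The downstream start was not placed on mm9, so distances from it are not given. As background, active promoters usually carry H3K4me3 in place of H3K4me1. H3K4me3 was not measured here, and whether it bears on these counts was not tested.

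H3K27me3 met no factor peak in these windows. It touched 0 of 13 Hoxa9 peaks, which allows a share of up to 23.1%, against 1.49% of the list, and 0 of 70 C/EBPα peaks, which allows up to 4.29%, against 2.09%. These numbers of peaks cannot show a share below that of the lists. Of the 7 H3K27me3 regions, 1 touched H3K4me1 (14.3%, 0.361 to 57.9), against 14.6% of the list, and from the other side 1 of 248 H3K4me1 regions touched H3K27me3 (0.403%, 0.0102 to 2.23), against 6.85%. The 7 regions lay at Lmo2 (3), Gata2 (2), Runx1 (1) and Sox4 (1), and all were in flanks, so the loci's H3K27me3 cannot be assigned to the 6 genes from position.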

How the data were processed

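ChIP-seq peak lists of 4 libraries were used, 1 library per group. The submitters' processing notes name MACS 1.4, BWA 0.6.2, CASAVA 1.8.2 and build mm9. The sources used here state neither caller settings nor the control library. Each deposited list gives, per the file headers, tags per peak as counts that are not normalized, a p score of 10 times the −log10 p-value, a fold enrichment (a linear ratio) and a false discovery rate in percent. All were made by the authors in each library separately, and used only to describe and rank peaks within a list. The score was tied at 3100 in 4 of the C/EBPα peaks, so fold enrichment was used for ranks. Library depth is unknown. Called peaks held at least 17 tags for Hoxa9, 15 for C/EBPα, 14 for H3K4me1 and 20 for H3K27me3, and weaker sites are missing from the lists.

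Rows sharing at least 1 bp with a window were members, and peaks sharing at least 1 bp touched. Positions are 1-based, and the summit offset was counted from the peak start as base 1. Gene spans are rounded to 1 kb. Named peaks were every Hoxa9 peak of a window (at most 6), its 3 C/EBPα peaks of highest fold enrichment, pairs of summits within 200 bp, and the widest or strongest regions of each mark. Others are named for contrast. Members, lists and rules were chosen with earlier results of these data known. Shares carry exact Clopper-Pearson intervals at 95%, and a count of 0 is read as allowing 3 counts. Both cover counting error only. Neighbouring genes and strands came from RefSeq (GRCm38.p6) by name and order, with no conversion of coordinates. The overlap code was tested on simulated lists. Analyses used Python 3.11.15, pandas 2.3.3, NumPy 2.4.6 and SciPy 1.17.1.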

Additional observations from a re-analysis of the deposited data

How the results depend on the processing

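Of 112 alternatives to 8 pooled values, 87 stayed near the value (within its 95% interval for shares, within 1.5 times otherwise) and 25 did not. With no flanks, C/EBPα peaks numbered 98.4 per Mb, 100% of 3 Hoxa9 peaks touched C/EBPα and 100% touched H3K4me1, 77.4% of C/EBPα peaks touched H3K4me1, and coverage was 54.1% for H3K4me1 and 0.0% for H3K27me3. With flanks of 25 kb both Hoxa9 shares were 100% of 6 peaks, and H3K27me3 covered 0.406%. With 150 kb it covered 3.08%. With every list limited to fold enrichments from 10 up, densities were 1.65 (Hoxa9) and 17.3 (C/EBPα) per Mb, 4.76% of C/EBPα peaks touched Hoxa9, H3K4me1 touched 0.0% of 2 Hoxa9 and 23.8% of C/EBPα peaks, and it covered 6.75%. In the upper 50% of every list by score, densities were 6.58 and 27.2 per Mb and 100% of 8 Hoxa9 peaks touched H3K4me1. The last 2 settings keep fewer rows by construction. With summits within 100 or 200 bp as shared, 30.8% or 38.5% of Hoxa9 peaks met C/EBPα, and 5.71% of C/EBPα peaks met Hoxa9 within 100 bp. With the C/EBPα summit inside the region, 75.7% were in H3K4me1. Without Gfi1 100% of Hoxa9 peaks touched H3K4me1, and without Sox4 H3K27me3 covered 0.943%. Flanks of 76 kb, added after seeing the pair of peaks just outside the Gata2 window, gave 14 Hoxa9 peaks, 71.4% of them with C/EBPα. With 13 Hoxa9 and 7 H3K27me3 rows, counting error limits every share. No paired analysis was possible because each group had 1 library.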
